A study of Homo sapiens with 79 samples.

Results

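The RNAs that came down with the histone deacetylase HDAC1 were compared with the RNAs of the lysate in K562, an established human erythroleukemia cell line. The material is 3 HDAC1 fRIP libraries and the 3 input libraries of set 1, which are 6 of the 79 libraries in the series. The labels name the HDAC1 and the input libraries but tie no input set to HDAC1, and set 1 was the set nearest to the authors' pooled input values. fRIP stands for formaldehyde RNA immunoprecipitation, and the series applied it to 24 chromatin-associated and RNA-binding proteins and sequenced 9 input libraries in 3 sets. All cells were unmodified K562, cross-linked with 0.1% formaldehyde for 10 minutes and broken by sonication, and input was lysate kept back before any antibody was added. The HDAC1 libraries rest on 1 commercial antibody, and no library made with a control antibody was analysed here. Values are FPKM, fragments per kilobase of transcript scaled to the mapped fragments of the library, so a value is a share of its library and a gain of some RNAs cannot be told apart from a loss of others. A log2 fold change is the difference of the mean log2(FPKM + 1) of both groups, which understates changes of low genes.

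HDAC1 removes acetyl groups from the tails of histones and from other proteins. It works inside large corepressor assemblies, above all SIN3, NuRD and CoREST, in which other subunits read chromatin marks, remodel nucleosomes or remove methyl groups. fRIP reads RNA that formaldehyde fixed to the protein or to its neighbours, whether or not the protein touches RNA itself.

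Short stretches of coding sequence are printed as examples of 6-base words whose density rose with HDAC1 enrichment. They were picked for holding such words, so their purine content was part of the choice. These are 30-base windows of the mRNAs of RYR1, DNAH8, PCSK5 and GPR98, each the stretch of coding sequence with the most bases inside the 10 words of 6 bases whose density rose most with HDAC1 enrichment, and capitals mark those words. They come from the 4 highest named mRNAs with coding sequences over 4800 bases. All 4 are exonic and read 5′ to 3′ on the + strand of hg19, at chr19:38964381-38964410 (RYR1), chr6:38820537-38820566 (DNAH8), chr9:78936526-78936555 (PCSK5) and chr5:89949129-89949158 (GPR98). Their transcripts have coding sequences of 15099, 12564, 5580 and 18918 bases.
RYR1: atgccaccaccgAGAAGAacaAGAAGAGAG
DNAH8: tcatggccgtcatatcAAGAGAAgGAGAAA
PCSK5: aggactgcatccatGAGAAAacatgcaaag
GPR98: agagtgtttAGAGAGAGAAgtggcAGAAGA

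The depth behind the values was read from the steps between low FPKM values of 518 long genes with a single isoform. It came to about 10400000 to 13500000 fragments in the HDAC1 libraries and 19700000 to 21600000 in input set 1, so the inputs are the more precise side of each comparison. Pearson correlations of log2(FPKM + 1) were 0.959 to 0.970 among HDAC1 libraries, 0.973 to 0.983 among the inputs of set 1 and 0.930 to 0.941 between both groups. Of 12 markers of K562, 11 were at 1 FPKM or more in every HDAC1 and set 1 library, whereas MS4A1 and KRT14, which mark B cells and basal epithelium, were listed at 0 in all 6. Of all 9 lymphocyte and epithelial markers 3 were at 1 FPKM or more in every one of these libraries, and the 9 summed to 33.4 to 36.3 FPKM in HDAC1 fRIP and 49.4 to 58.0 FPKM in input set 1.

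Replicate 1 of input set 1 stood apart from the other libraries of its set in erythroid genes. The fetal globin gene HBG2 was at 178, 901 and 944 FPKM in the 3 inputs, and the embryonic globin gene HBE1 was at 208, 645 and 636 FPKM. HBG2 was also lowest in replicate 1 of HDAC1, at 151 FPKM against 284 and 353. In bulk RNA fewer cells of a type and less RNA per cell cannot be told apart.

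To ask which RNAs HDAC1 fRIP enriched, limma was fitted over the 79 libraries to the 25442 genes that reached 1 FPKM in 2 or more of them. Enriched and depleted mean a change over 2-fold whose p, adjusted after Benjamini-Hochberg, was under 0.05. Against input set 1, 1292 genes were enriched (5.08%) and 846 were depleted (3.33%). Against all 9 inputs the counts were 2148 (8.44%) and 1364 (5.36%). The balance depended on scale. When each library was centred on its median, which moved the comparison by 0.097 on the log2 scale, 926 genes were enriched and 1139 depleted. Changes were mostly small, with 80% of all genes lying between the 0.1 quantile of -0.66 and the 0.9 quantile of 0.76.

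The leading pattern among mRNAs was the length of the coding sequence. The median fold change was above 0 for mRNAs of giant proteins and below 0 for mRNAs of small proteins in all 3 HDAC1 libraries. Of 275 mRNAs with coding sequences over 4800 bases, 86 were enriched (31.3%) and none was depleted at these thresholds by limma, nor was any lower at an unadjusted p under 0.05. Among 1216 mRNAs of 2400 to 4800 bases 180 were enriched (14.8%). The share fell to 5.55% of 3480 mRNAs at 1200 to 2400 bases and to 2.39% of 3856 at 600 to 1200 bases. At 300 to 600 bases 238 of 1917 mRNAs were depleted (12.4%) and 12 enriched, and under 300 bases 99 of 475 were depleted (20.8%) and 8 enriched.

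**Figure D1:**
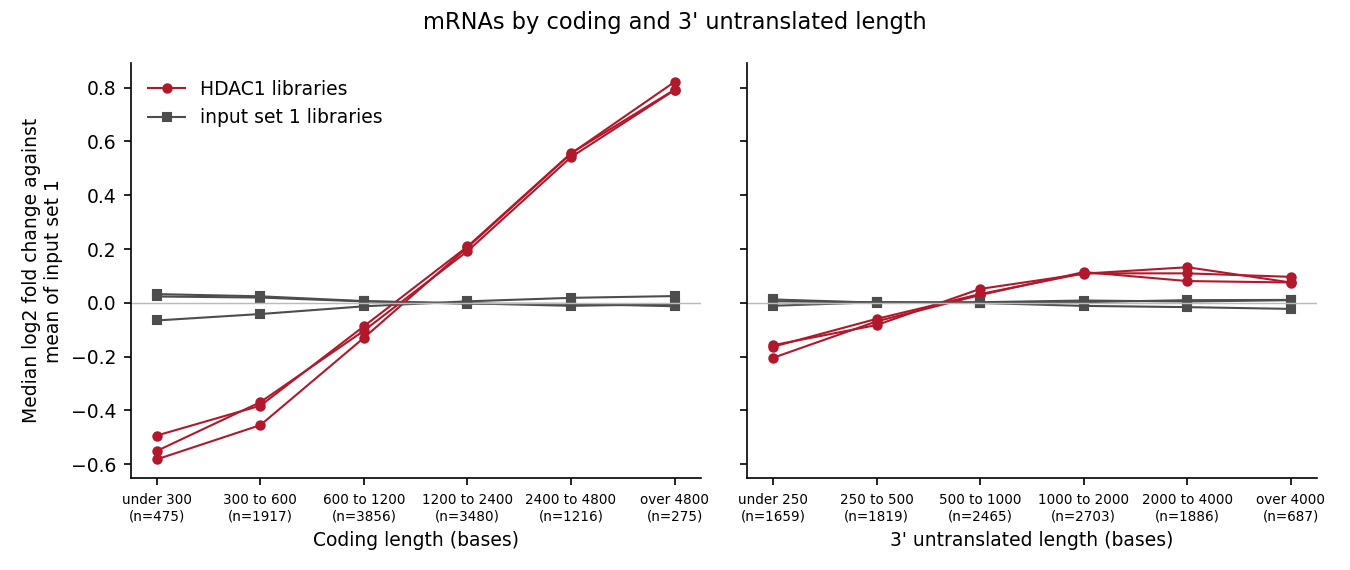
Median log2 fold change of mRNAs against the mean of input set 1, by coding length (left) and by length of the 3′ untranslated region (right), in bases. Each red line is 1 HDAC1 library and each grey line 1 input library, and the red medians climb with coding length from -0.58 to 0.82 while those of the inputs stay within -0.07 and 0.03.

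The medians climbed at every step, from -0.52 under 300 bases through -0.41, -0.11, 0.20 and 0.55 to 0.78 over 4800 bases. The 3 HDAC1 libraries gave nearly the same value at each step, for example 0.82, 0.79 and 0.79 for the longest group. Input libraries stayed between -0.07 and 0.03 in all groups, so the span in HDAC1 was far outside their spread. Leaving out mRNAs of ribosomal proteins moved the 2 shortest groups only to -0.50 and -0.40. Across 11219 mRNAs, which are not independent replicates, Spearman's correlation of fold change with coding length was 0.505 (0.503 to 0.506 over 3 libraries), whereas each input library against the other inputs of its set gave -0.105 to 0.131.

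The correlation with other parts of the transcript was lower. That with whole transcript length was 0.350, with exon number 0.269 and with the length of the 3′ untranslated region 0.140. After coding length was regressed out, the 3′ untranslated region was left with 0.055, whereas coding length kept 0.504 after the 3′ untranslated region was regressed out. Exon number kept 0.136 after transcript length, and transcript length 0.267 after exon number. Genes abundant in input tended to be lower in HDAC1 fRIP, at -0.216, but this value varied from -0.320 to -0.127 between libraries, and single input libraries gave -0.193 to 0.228. The relation was seen between genes and not between the isoforms of a gene. Among 3370 genes with several coding isoforms, the isoform with the longest coding sequence minus that with the shortest had median differences of -0.06, 0.06 and 0.01 in the 3 libraries. Isoforms share reads, which are divided between them, so this comparison cannot show that the relation is absent within genes.

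The giant genes described next were named for high fold changes with every HDAC1 library above all inputs, so the separation of their groups was part of the choice. RYR1, the calcium release channel of muscle, was at 20.9, 19.8 and 19.6 FPKM in HDAC1 fRIP and at 4.68, 3.54 and 3.16 FPKM in input. The log2 fold change was 2.15 ± 0.28 (SE, adjusted p 1.3e-08, limma). GPR98, a very large adhesion receptor, was at 227, 274 and 283 FPKM against 60.5, 63.9 and 61.8 FPKM, a log2 fold change of 2.05 ± 0.19 (adjusted p 5.6e-13). DNAH8, an axonemal dynein heavy chain, gave 36.0, 27.0 and 20.8 FPKM against 6.13, 5.21 and 6.09 FPKM (log2 fold change 2.06 ± 0.23). VPS13B, a lipid transfer protein, gave 176, 178 and 188 FPKM against 48.6, 48.6 and 45.1 FPKM (1.91 ± 0.16). CEP152, which acts in centriole duplication, gave 103, 104 and 133 FPKM against 33.8, 32.1 and 30.4 FPKM (1.78 ± 0.16).

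Not all leading mRNAs were long. EID3, a subunit of the SMC5/6 complex with a coding sequence of 999 bases, was at 29.9, 24.9 and 27.4 FPKM against 5.48, 6.73 and 6.53 FPKM (1.97 ± 0.25). The other high mRNAs were PCSK5 at 2.05, MYO18B at 1.83 and POTEE at 2.14, the last of which belongs to a family of near-identical copies and is uncertain. The highest values of all, 2.47 for ARHGAP19-SLIT1 and 2.29 for ZFP91-CNTF, belong to readthrough transcripts that share reads with their component genes, so they are uncertain as well. RP11-438J1.1, at 1.99, was the remaining gene of the 12 highest.

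Each of the 11 giant ubiquitin ligases passed the adjusted p upward and 6 were enriched, where 5.08% of all genes were. Their median was 1.18 beside 0.01 over all genes tested. BIRC6, which blocks apoptosis, was at 212, 229 and 214 FPKM in HDAC1 fRIP and at 78.1, 76.8 and 83.9 FPKM in input (log2 fold change 1.45 ± 0.14, adjusted p 9.6e-12, limma). HERC1 was at 265, 246 and 237 FPKM against 99.7, 94.4 and 99.2 FPKM (1.34 ± 0.13). Of the 6 PI3K-related kinases, which sense DNA damage and nutrients, 4 were enriched with a list median of 1.10, and 3 to 5 when 1 library was left out. ATM was at 120, 165 and 142 FPKM against 41.1, 51.04 and 50.8 FPKM, and ATR at 56.9, 52.6 and 65.9 FPKM against 22.6, 21.4 and 20.2 FPKM. Beside other mRNAs over 4800 bases, 7 of 10 such ligases and 4 of 4 such kinases lay above the median, with list medians of 1.07 and 1.10 beside 0.78. Of 13 ankyrins and other large cytoskeletal linkers over 4800 bases 3 lay above that of their peers, with a median of 0.34 beside 0.80, and of all 19 such linkers tested 5 were enriched and 0 depleted by limma (7 higher and 0 lower at an unadjusted p under 0.05). The difference between these lists was not tested.

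Of 33 CEP and related centrosome proteins 11 were enriched and none was depleted by limma, none lower even at an unadjusted p under 0.05, with a median of 0.67. PCNT, the pericentrin scaffold, was at 149, 140 and 133 FPKM against 40.6, 38.6 and 41.7 FPKM (1.78 ± 0.17). Of 31 kinesins 6 were enriched, led by KIF13B at 64.7, 52.0 and 48.3 FPKM against 17.0, 17.3 and 16.7 FPKM (1.63 ± 0.19). Of 27 centromere and kinetochore proteins 1 was enriched, or 1 to 3 when 1 library was left out, and 1 depleted, near the 5.08% and 3.33% of all genes. In the group of 1200 to 2400 bases, 15 of 16 CEP mRNAs lay above the median of the other mRNAs of that group, a count chosen after values had been seen.

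**Figure D2:**
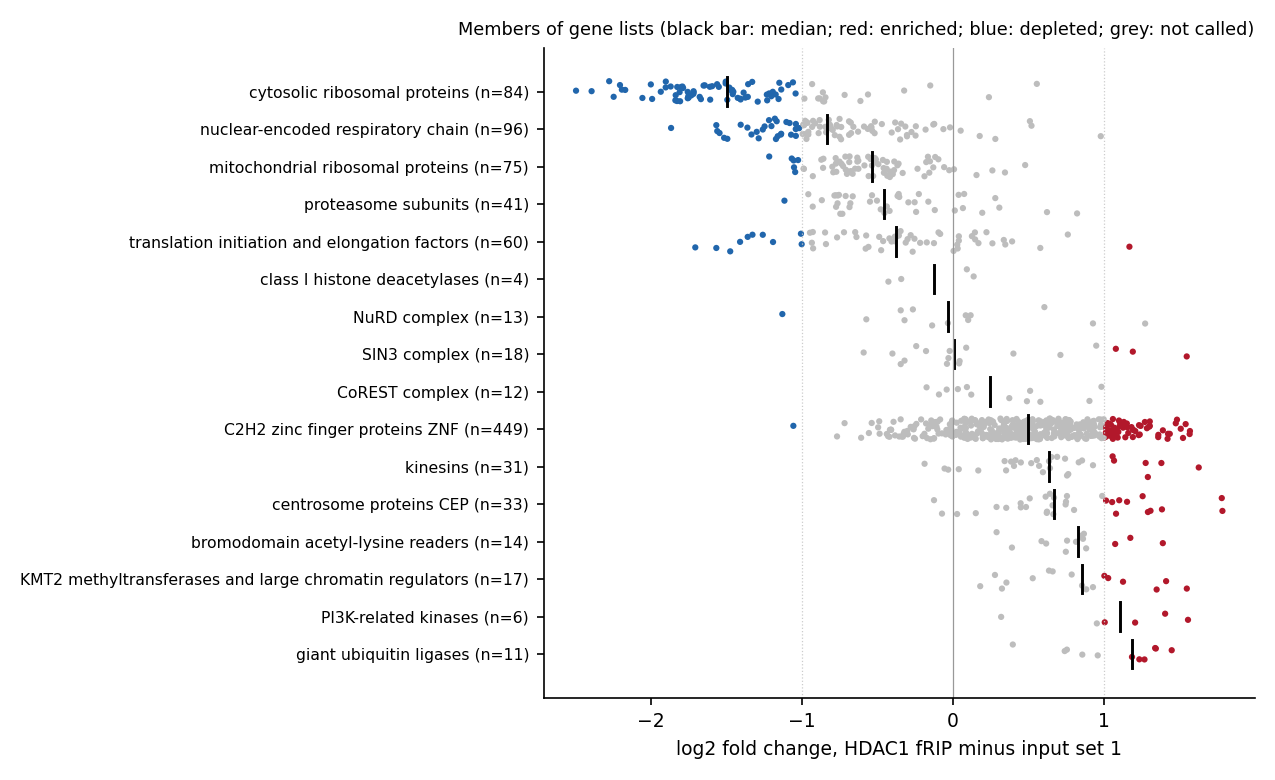
log2 fold change of HDAC1 fRIP against input set 1 for the members of 16 gene lists, 1 point a gene, with the list median as a black bar and red, blue and grey for enriched, depleted and not called. Ribosomal proteins lie lowest (median -1.498) and giant ubiquitin ligases highest (median 1.18), while the lists of deacetylase complexes straddle 0.

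mRNAs of ribosomal proteins were depleted. Of 84 tested mRNAs of cytosolic ribosomal proteins, 69 were depleted and 0 were enriched by limma (0 higher and 80 lower at an unadjusted p under 0.05), with a median of -1.498. Together these mRNAs took 3.40% to 3.86% of the FPKM of HDAC1 libraries and 8.81% to 8.995% of those of input set 1. RPL12 was at 97.1, 86.2 and 74.8 FPKM against 489, 494 and 477 FPKM in input (log2 fold change -2.49 ± 0.18, adjusted p 4.8e-16). RPS29 was at 103, 129 and 113 FPKM against 554, 608 and 655 FPKM (-2.39 ± 0.23), and RPS3A at 131, 111 and 102 FPKM against 528, 573 and 569 FPKM (-2.27 ± 0.17). Many ribosomal protein mRNAs have processed pseudogene copies, between which reads can be divided.

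Ribosomal protein mRNAs also lay below other mRNAs of their coding length. In the group of 300 to 600 bases, the 52 ribosomal protein mRNAs had a median of -1.58 beside -0.40 for 1865 other mRNAs, and 50 of them lay below that value. The same held for the nuclear-encoded respiratory chain, where 35 of 38 members of that group lay below the median of their peers. These length-matched counts were chosen after values had been seen. Of the mRNAs of mitochondrial ribosomal proteins 23 of 36 lay below theirs.

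Other lists of housekeeping genes held fewer depleted members. Of 96 respiratory chain genes 28 were depleted and 0 enriched by limma (78 lower and 3 higher at an unadjusted p under 0.05), and the 28 became 18 without HDAC1 replicate 1, 41 without HDAC1 replicate 2 and 40 without HDAC1 replicate 3. UQCRH, the hinge subunit of complex III, was at 132, 161 and 163 FPKM against 418, 457 and 476 FPKM (-1.57 ± 0.17, adjusted p 1.0e-10). Of 60 translation factors 10 were depleted, among them EEF1A1, which delivers aminoacyl-tRNA to the ribosome, at 570, 424 and 490 FPKM against 1550.7, 1630 and 1628 FPKM (-1.70 ± 0.18). TPT1, an abundant growth-related mRNA that is translated like those of ribosomal proteins, was at 180, 144 and 130 FPKM against 685, 582 and 592 FPKM (-2.04 ± 0.15). Of mitochondrial ribosomal proteins 6 of 75 were depleted and of proteasome subunits 1 of 41, where 3.33% of all genes were, with medians of -0.54 and -0.45 and with 45 and 23 lower at an unadjusted p under 0.05. The proteasome count was 0 without HDAC1 replicate 1, 2 without HDAC1 replicate 2 and 3 without HDAC1 replicate 3 or input replicate 1. Of 66 chaperones 2 were enriched and 2 depleted (12 higher and 13 lower at an unadjusted p under 0.05). The 6 mitochondrial ribosomal genes became 1 without HDAC1 replicate 1 and 4 without input replicate 3, and 9 without input replicate 1.

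**Figure D3:**
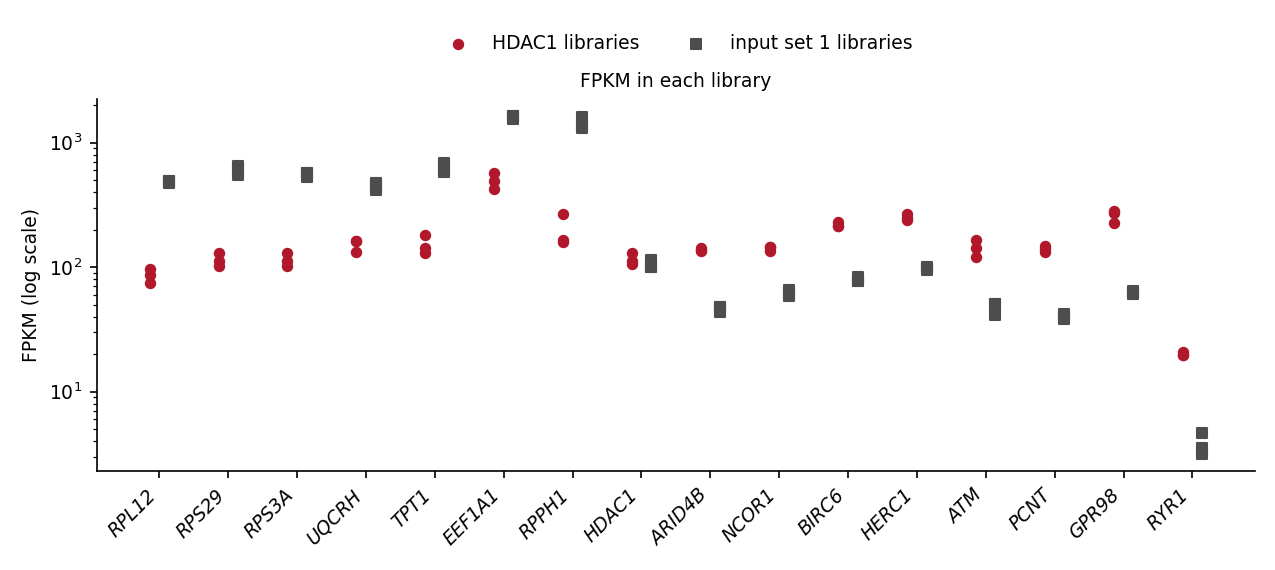
FPKM of 16 genes on a log axis, with red circles for the 3 HDAC1 libraries and grey squares for the 3 libraries of input set 1. The groups are apart for every gene except HDAC1 itself, whose red points at 106 to 131 FPKM overlap the inputs at 101 to 115 FPKM. All genes shown other than HDAC1 were called enriched or depleted, so this separation was part of the choice. Genes with overlapping groups, such as SIN3A, are not shown.

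The mRNAs of HDAC1 and of its own complexes were mostly close to input. HDAC1 mRNA was at 106, 112 and 131 FPKM against 115, 101 and 101 FPKM, so the groups overlapped, and the log2 fold change was 0.14 ± 0.12 (adjusted p 0.48, limma). HDAC2, its closest paralog, was at 53.4, 59.2 and 62.0 FPKM against 73.1, 85.1 and 77.6 FPKM, which passed the adjusted p but not 2-fold (-0.43 ± 0.16, adjusted p 0.042). None of the 4 class I deacetylases was called by limma, with 0 higher and 2 lower at an unadjusted p under 0.05.

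Of 18 SIN3 complex genes 3 were enriched, where 5.08% of all genes were, and none was depleted by limma (5 higher and 4 lower at an unadjusted p under 0.05), with a list median of 0.01. ARID4B, a chromatin reader of the complex, was at 137, 134 and 143 FPKM against 47.9, 48.1 and 43.8 FPKM (1.55 ± 0.15, adjusted p 6.3e-12). Its paralog ARID4A was at 27.9, 29.9 and 31.6 FPKM against 14.8, 11.3 and 11.7 FPKM (1.19 ± 0.22). KDM5A, a histone demethylase, was at 67.3, 61.7 and 55.8 FPKM against 29.5, 26.6 and 29.7 FPKM (1.077 ± 0.13), and fell to 0.98 after centring. The scaffold SIN3A, in contrast, was at 31.4, 34.1 and 33.5 FPKM against 34.9, 33.8 and 31.9 FPKM, with overlapping groups.

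Among 13 NuRD genes CDK2AP1 was the only one called, where 5.08% of all genes were enriched and 3.33% depleted. It was at 5.84, 7.58 and 9.85 FPKM against 15.2, 19.97 and 18.6 FPKM (-1.13 ± 0.26), and fell short of 2-fold at -0.96 without HDAC1 replicate 1. The remodelers CHD3 and CHD4 varied widely between libraries of 1 group, CHD3 at 58.5, 43.4 and 189 FPKM in HDAC1 fRIP and 17.9, 104 and 17.1 FPKM in input. No direction can be read for them. None of 12 CoREST genes was called by limma (6 higher and 0 lower at an unadjusted p under 0.05). The nearest to it was ZMYM2 at 56.2, 48.8 and 49.5 FPKM against 24.8, 27.1 and 24.7 FPKM (0.98 ± 0.14), which crossed 2-fold under 7 of the 16 alternatives. NCOR1, the scaffold of a separate corepressor that holds HDAC3, was enriched at 146, 146 and 135 FPKM against 65.3, 58.3 and 61.4 FPKM (1.19 ± 0.09, adjusted p 4.0e-15).

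Of 14 histone acetyltransferases, which write the mark that HDAC1 removes, 1 was enriched and 0 depleted by limma. Of all genes 5.08% were enriched and 3.33% depleted. At an unadjusted p under 0.05, 10 of the 14 were higher and 1 lower, and 1 to 2 were enriched when 1 library was left out. All 14 bromodomain genes, which code for readers of acetyl-lysine, were higher at an unadjusted p under 0.05, and 13 passed the adjusted p. Of these, 3 also exceeded 2-fold and were enriched, beside 5.08% of all genes. BAZ2B was at 81.3, 86.2 and 86.7 FPKM against 34.2, 32.0 and 29.1 FPKM (1.39 ± 0.19), and BRD2 at 233, 272 and 264 FPKM against 111, 115 and 113 FPKM (1.17 ± 0.14). Among 17 KMT2 and other large chromatin regulators 6 were enriched, again beside 5.08% of all genes. CHD9 led them at 190, 212 and 231 FPKM against 67.5, 76.7 and 70.2 FPKM (1.55 ± 0.18). Leaving out 1 library at a time gave 4 to 7 enriched. In the group of coding sequences over 4800 bases the 14 members of this list had a median of 0.83 beside 0.78 for the other 261 mRNAs.

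The C2H2 zinc finger genes, the largest family of transcription factors in the genome, stood above mRNAs of their length. Of 449 ZNF genes 58 were enriched and 1 was depleted, beside 5.08% and 3.33% of all genes, with a median of 0.50. In the 1200 to 2400 base group 188 of 209 lay above the median of the other mRNAs, 0.16, and their own median was 0.71. ZNF841 was at 88.4, 64.0 and 49.3 FPKM against 21.9, 21.8 and 20.49 FPKM (1.57 ± 0.31, adjusted p 5.0e-05), and ZNF782 at 31.9, 32.3 and 29.03 FPKM against 10.5, 9.81 and 9.24 FPKM (1.57 ± 0.18). The depleted member was ZNF511, at 9.37, 8.15 and 13.3 FPKM against 20.53, 20.3 and 25.6 FPKM. Centring left 37 enriched and the comparison with 9 inputs gave 106. Zinc finger genes resemble each other in sequence, so reads can be divided between members.

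Base composition moved with enrichment in addition to length. These groups were chosen after values had been seen. Among mRNAs with coding sequences of 2400 to 4800 bases, 24.6% of 130 with a coding GC content under 40% were enriched, against 3.06% of 196 over 60%. Over 4800 bases, the shares were 41.7% of 24 under 40% GC, 47.9% of 73 at 40% to 45% and 11.1% of 36 over 60%. In mRNAs under 600 bases no such slope was seen, and medians lay from -0.59 to -0.41 in all GC groups. Across 9683 mRNAs the correlation of fold change with coding GC was -0.154, which lies within the range of -0.212 to 0.234 that single input libraries gave.

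**Figure D4:**
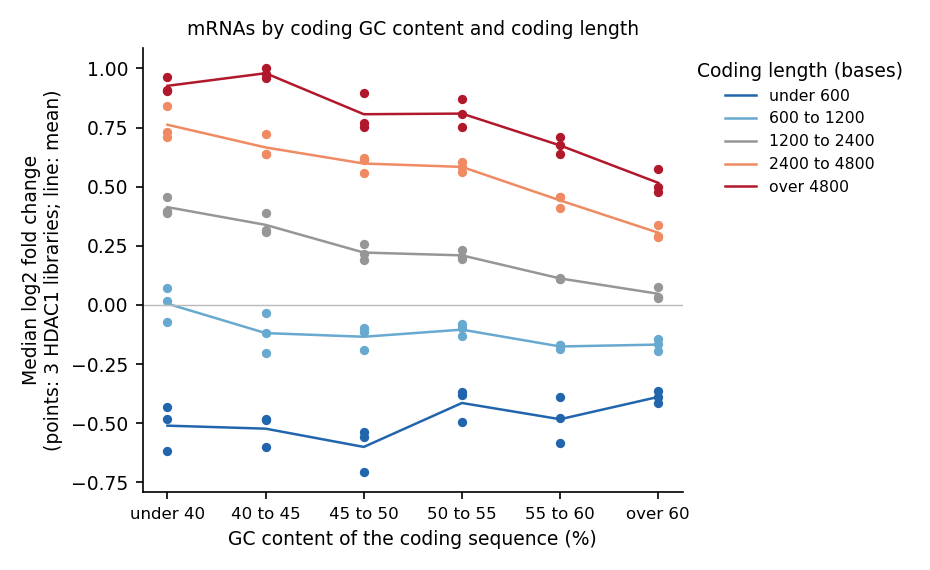
Median log2 fold change of mRNAs against input set 1 by GC content of the coding sequence, with 1 line per coding length group and 1 point for each of the 3 HDAC1 libraries. For coding sequences over 2400 bases every library has a lower median over 60% GC than at 40% to 45%, and at 2400 to 4800 bases the median of all libraries falls from 0.75 under 40% to 0.32 over 60%.

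Some purine-rich words were more frequent in enriched mRNAs. Of all 6-base words, AGAGAA had the highest correlation of its density with fold change, at 0.198 over 11303 mRNAs (0.179, 0.194 and 0.220 in the 3 libraries), whereas single input libraries gave -0.077 to 0.074. AGAGAA was held by 84.7% of 581 enriched mRNAs, by 47.5% of 476 depleted mRNAs and by 68.9% of all, and longer mRNAs have more room for any word. Next came GAGAAA at 0.177 and AAGAGA, which also stood at 0.177. Not every purine word did so. GAGGAG stood at 0.085, within the -0.086 to 0.092 of input libraries, and its median density was 0.572 per 1000 bases in enriched mRNAs beside 0.610 in all. GAAGAA went from 0.166 to 0.103 once coding length was regressed out. With the longest transcript of each gene AGAAGA was highest at 0.213, and only 5 of the 10 highest words were shared. The lowest was AATAAA, the poly(A) signal, at -0.119, but input libraries ranged from -0.155 to 0.132, and with the longest transcript GCTGGG was lowest. These correlations are weak, and the sense strand only was searched.

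Of 5245 lncRNAs 161 were enriched (3.07%) and 123 depleted (2.35%), with a median of -0.01, beside 4.38% and 3.51% of mRNAs with a median of 0.03. Within bins of input FPKM the lncRNA median lay below the mRNA median in each of 6 bins, and with all 9 inputs the difference turned in 2 of them (0.042 and 0.066 from 10 and 20 FPKM). Among 2787 lncRNAs the correlation of fold change with length was 0.203. RP11-274B21.1 was enriched at 131, 104 and 92.8 FPKM against 34.7, 30.3 and 29.7 FPKM (1.75 ± 0.16, adjusted p 6.3e-13). Of 440 antisense lncRNAs 16 were enriched, a share near the 3.07% of all lncRNAs, and C1RL-AS1 was highest of these at 28.4, 31.5 and 37.005 FPKM against 12.2, 10.2 and 11.4 FPKM, but the strand use of the counting is not given, so reads of antisense partners cannot be told apart.

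Of 12 listed small structured RNAs made by RNA polymerase III, only 3 were among the deposited genes. All 3 were depleted, where 3.33% of all genes were. RPPH1, the RNA of ribonuclease P, was at 166, 266 and 160 FPKM against 1602, 1317 and 1347 FPKM (-2.88 ± 0.22, adjusted p 4.0e-15). RN7SL1, the RNA of the signal recognition particle, was at 38.6, 52.4 and 44.9 FPKM against 203, 147 and 163 FPKM (-1.89 ± 0.31). By limma 3 of 19 snoRNA host genes were depleted and 0 enriched, beside 3.33% and 5.08% of all genes. At an unadjusted p under 0.05, 7 were lower and 2 higher. Of 12 snoRNAs none was called (2 lower and 0 higher at that p), or 1 depleted without HDAC1 replicate 1. The median transcript length of the snoRNA list was 609 bases. The snoRNA host genes SNHG5 and SNHG6, whose introns hold small nucleolar RNAs, fell to 171, 198 and 219 FPKM from 475, 546 and 540 FPKM and to 76.5, 66.8 and 71.5 FPKM from 160, 198 and 184 FPKM. SCARNA9, a guide RNA of Cajal bodies, was at 24.2, 20.9 and 25.2 FPKM against 137, 91.4 and 101 FPKM. LINC00273 was lowest of the lncRNAs, at 0.849, 0.882 and 3.95 FPKM against 22, 18.8 and 17.7 FPKM (-2.98 ± 0.49).

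Pseudogenes held the highest share of enriched genes, 478 of 5247 (9.11%), with 206 depleted. When they were split by position, a split made after values had been seen, the share was highest in pseudogenes inside an mRNA gene on the same strand. Of 863 such pseudogenes 189 were enriched (21.9%), against 5.71% of 1454 on the opposite strand only and 7.03% of 2930 outside mRNA genes, beside 5.08% of all genes. The medians of the same-strand group were 0.30, 0.25 and 0.31 in the 3 HDAC1 libraries and between -0.01 and 0.01 in the inputs. lncRNAs inside an mRNA gene on the same strand did not share this, with 13 of 555 enriched (2.34%). Reads of the host gene and of a pseudogene inside it cannot be told apart here. Single-exon mRNAs also had a raised share, 45 of 366 (12.3%) beside 4.19% of mRNAs with more exons. Among olfactory receptor mRNAs 9 of 41 were enriched. The single-exon and olfactory receptor groups were likewise chosen after values had been seen. OR8D1 was at 62.2, 50.5 and 49.5 FPKM against 17.9, 17.5 and 18.4 FPKM (1.53 ± 0.25).

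A direct test against every other protein found few genes particular to HDAC1. By limma, 20 genes were higher in HDAC1 fRIP than in input set 1 and than in each of the other 23 fRIPs, and 18 of them were pseudogenes. AP001468.1 had the largest margin, at 46.0, 81.6 and 62.5 FPKM against 2.83, 4.28 and 2.45 FPKM in input (log2 fold change 3.93 ± 0.29, adjusted p 9.6e-16), and no other protein had a mean over 5.91 FPKM. Its locus in the deposited table, chr21:47604993-47648738 on hg19, overlaps LSS, the lanosterol synthase gene, which was at 101, 124 and 128 FPKM against 39.97, 46.0 and 47.4 FPKM. Reads shared by overlapping genes make the value of AP001468.1 uncertain.

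**Figure D5:**
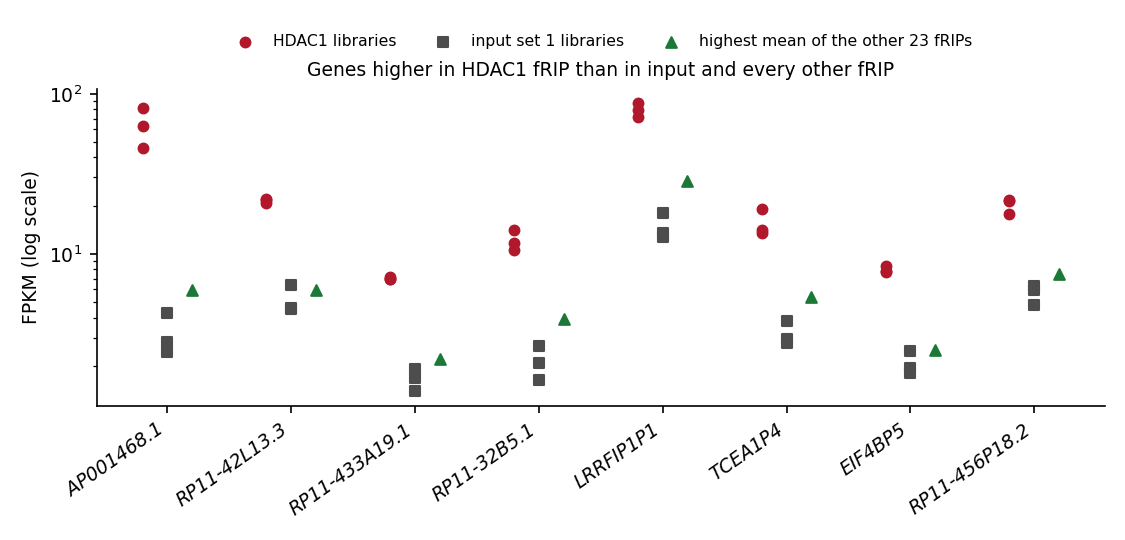
FPKM on a log axis of the 8 genes with the largest margin among those higher in HDAC1 fRIP than in input and in each other fRIP. Red circles are HDAC1 libraries, grey squares input set 1 and green triangles the highest mean of the other 23 fRIPs, which for LRRFIP1P1 was 28.6 FPKM below HDAC1 values of 71.2 to 87.3 FPKM.

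Of the 18 pseudogenes among them, 12 lay inside an mRNA gene, as did 272 of the 478 enriched pseudogenes (56.9%) and 2317 of the 5247 tested (44.2%), and 10 of the 12 lay on its strand, in ATF6, SLC30A6, SLC30A9, PHKB and UBE3C among others. LRRFIP1P1 (chr3:178976816-178979061, hg19) was at 71.2, 79.6 and 87.3 FPKM against 18.1, 13.5 and 12.7 FPKM (2.36 ± 0.17, adjusted p 5.3e-16), and shared 37.6% of its 31-base windows with the overlapping gene KCNMB3, which rose by 1.15. RP11-456P18.2 (chr1:161860623-161861986), inside ATF6, was at 21.8, 21.3 and 17.8 FPKM against 5.91, 4.79 and 6.25 FPKM, and none of its 31-base windows occurred in another transcript. RP11-42L13.3 (chr5:29105675-29106968), which overlaps the gene CTD-2118P12.1, was at 21.7, 22.1 and 20.8 FPKM against 6.34, 4.61 and 4.51 FPKM, again with no shared window. Only annotated transcripts were searched, without introns, so the windows cannot show whether reads came from an intron of an overlapping gene.

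Isoforms gave 4301 enriched (4.12%) and 2074 depleted (1.98%) of 104506 tested. In 211 of 12280 genes with several tested isoforms, 1 isoform was enriched and another depleted, and the enriched one was the longer in 112. Isoforms of a gene share reads, which the authors' software divides between them, so such a switch can rest on few distinguishing reads. The widest gap was in MALAT1, an abundant nuclear lncRNA on chromosome 11. The gene was at 5039 to 6965 FPKM in HDAC1 fRIP and 5083 to 5547 FPKM in input, so the groups overlapped. Its isoform ENST00000544868 was at 4056, 3722 and 2943 FPKM in HDAC1 fRIP and at 3.17e-06 FPKM or less in all 9 inputs. The isoform ENST00000508832 was at 21.3, 8.16 and 27.3 FPKM against 2813, 2914 and 2960 FPKM. The first was above the second in all 3 HDAC1 libraries and in 0 of the other 23 fRIPs. Both isoforms share 2262 bases, 90.3% of the first and 36.7% of the second.

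Other such pairs were seen in mRNA genes. For RTN3, a protein that shapes the endoplasmic reticulum, ENST00000540798 with a coding sequence of 2760 bases was at 18.6, 13.1 and 11.4 FPKM against at most 0.13 FPKM in input set 1, while ENST00000537981 with 708 bases was at 1.21e-82 FPKM or less in HDAC1 fRIP and at 95.3, 76.3 and 80.6 FPKM in input. For NUP214, a nucleoporin, ENST00000531600 was at 21.7, 39.1 and 31.1 FPKM against at most 0.37 FPKM, and ENST00000483497 was listed at 1.24 FPKM or less against 7.94, 9.49 and 7.35 FPKM. Isoforms annotated to undergo nonsense-mediated decay were enriched in 473 of 8351 cases (5.66%) and depleted in 1.16%. Retained-intron isoforms were enriched in 353 of 19390 cases (1.82%) and depleted in 1.02%, both below the 4.12% and 1.98% of all isoforms.

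Retained introns mark RNA that is not fully processed. Their isoforms took 14.8%, 13.1% and 14.2% of the FPKM of mRNA genes in HDAC1 fRIP and 13.9%, 12.8% and 12.7% in input set 1, so the groups overlapped. The difference of 0.846 percentage points had p = 0.2 by an exact two-sided permutation test, in which 3 against 3 libraries cannot go under 0.1. Against all 9 inputs, which had 10.7% ± 1.9 (SD, n = 9), the difference was 3.34 points (p = 0.018, exact permutation). Input sets 2 and 3 lay between 9.04% and 9.86%, apart from set 1, whereas this test takes all 9 inputs as exchangeable, so its p does not allow for the sets. Without HDAC1 replicate 1 or 3 this gave p = 0.073, again by exact permutation. Isoforms of nonsense-mediated decay took 6.85% to 7.21% in HDAC1 fRIP and 5.505% to 5.75% in the 9 inputs, without overlap. The fRIPs of CHD4, at 6.22% to 6.91%, and LSD1, at 6.01% to 6.28%, also lay above all inputs.

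HDAC1 was then compared with 2 partners of its complexes, the NuRD remodeler CHD4 and the CoREST demethylase LSD1, with 3 fRIP libraries each. In direct contrasts, which need no input, 5445 genes were higher (21.4%) and 2934 lower (11.5%) in HDAC1 than in CHD4 fRIP, and 4081 were higher (16%) and 1104 lower (4.34%) than in LSD1 fRIP. Centring each library reversed the balance, to 2281 and 6265 genes for CHD4 and 1312 and 5137 for LSD1, since the library medians differed by 0.691 and 0.700 on the log2 scale. The median differences below are given relative to all genes, by subtracting the median difference of all genes tested (0.24 for CHD4 and 0.21 for LSD1), and after centring, which subtracts the larger shift. Counts are given without centring.

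CHD4 had the opposite relation to coding length. Among mRNAs over 4800 bases, 228 of 275 were higher in HDAC1 than in CHD4 fRIP and 0 were lower. Under 300 bases 38 of 475 were higher and 284 lower. Relative to all genes the median difference ran from -1.64 under 300 bases to 1.403 over 4800 bases, and after centring from -2.09 to 0.95. Against input, CHD4 itself had a correlation with coding length of -0.485 and LSD1 of 0.119, beside 0.505 for HDAC1, all 3 computed here against input set 1, which the labels tie to none of them. The difference from LSD1 ran from -0.29 under 300 bases through -0.51 at 300 to 600 bases to 0.66 over 4800 bases, again relative to all genes. After centring these were -0.78, -1.004 and 0.17. Without centring 116 of 275 of the longest mRNAs were higher in HDAC1 fRIP and 1 lower.

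Single genes showed the size of these contrasts. BIRC6, at 212 to 229 FPKM in HDAC1 fRIP, was at 24.1 to 31.1 FPKM in CHD4 and 57.2 to 72.1 FPKM in LSD1 fRIP, a log2 difference of 2.96 ± 0.14 from CHD4 (adjusted p 5.3e-25, limma) and 1.76 ± 0.14 from LSD1. After centring these were 2.27 and 1.06. LENG8 was at 304, 344 and 283 FPKM in HDAC1, 16.0 to 17.7 FPKM in CHD4 and 31.4 to 52.0 FPKM in LSD1 fRIP (4.12 ± 0.15 and 2.91 ± 0.15, or 3.43 and 2.21 after centring). TPT1, at 130 to 180 FPKM in HDAC1, was at 1162 to 1629 FPKM in CHD4 and 1167 to 1439 FPKM in LSD1 fRIP, differences of -3.84 and -3.78 after centring. RPS29, at 103 to 129 FPKM in HDAC1, was at 689 to 1794 FPKM in CHD4 but at 136 to 148 FPKM in LSD1 fRIP, where the difference of -0.29 ± 0.23 from HDAC1 had an adjusted p of 0.32 and became -0.99 after centring. GAPDH, the glycolytic enzyme, was at 108, 146 and 162 FPKM in HDAC1 and 1459 to 1726 FPKM in LSD1 fRIP, a difference of -3.54 ± 0.23, or -4.24 after centring.

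Globin genes, which this cell line expresses, gave no stable call. None of 6 globin genes was called by limma (0 higher and 1 lower at an unadjusted p under 0.05), although all 6 fold changes were negative, with a median of -1.25. HBG2 was at 151, 284 and 353 FPKM in HDAC1 fRIP against 178, 901 and 944 FPKM in input, a log2 fold change of -1.11 ± 0.73 (adjusted p 0.30). Without input replicate 1 it was -1.89 (adjusted p 0.079, limma). HBE1 went from -1.07 (adjusted p 0.13, limma) to -1.60 and HBA1 from -1.48 (adjusted p 0.16) to -2.24, both then depleted. HDAC1 replicate 1, also the lowest of its group in HBG2, HBE1 and HBA1, was kept in that fit. The removal was therefore not balanced between the groups. Against all 9 inputs 5 of the 6 globin genes were depleted. HBG1 and HBG2, like HBA1 and HBA2, are near-identical and their reads cannot be fully divided. The transcription factors GATA1 and TAL1 stayed near input, at 48.9, 60.2 and 54.5 FPKM against 73.3, 66.4 and 63.9 FPKM and at 46.2, 50.5 and 43.4 FPKM against 32.6, 46.0 and 49.6 FPKM.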

How the data were processed

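Gene and isoform values are FPKM as deposited by the authors, from fRIP and input libraries of K562 cells. The submitters' processing notes name CASAVA 1.4, TopHat, Cuffdiff and Cuffnorm, and the study's methods name hg19 and GENCODE v18. The strand use of the counting is not given in the sources used here. Columns of the authors' own comparisons (test statistics, p-values) were not used, except that their pooled input value was compared with the 3 input sets. Set 1 was nearest, with a median absolute log2 difference of 0.007 over 16642 genes beside 0.279 and 0.293 for sets 2 and 3.

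log2(FPKM + 1) of all 79 libraries was fitted with limma 3.58.1 (R 4.3.3) with an intensity trend, a mean for each of the 24 fRIPs and each input set, and no replicate block, and p-values were adjusted over all genes tested. The fit and the correlations with length were tested on simulated data. The study's methods describe biological replicates, made from separate lysates on separate dates. Python 3.11.15 with SciPy 1.17.1 gave the other statistics. GENCODE v44 in its hg19 version, joined on gene identifiers (46055 of 48453 genes), supplied classes, lengths, coordinates and sequences. Lengths of a gene were means over its isoforms weighted by input FPKM. Depth was read from low FPKM values, of which 91.3% to 98.0% lay within 0.15 fragments of a whole number.

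The gene lists and the members were chosen with earlier results of these data known. Named genes were the 12 mRNAs, 6 lncRNAs and 4 other genes highest and lowest by fold change with every HDAC1 library beyond all 9 inputs, the extreme members of each list, all members of deacetylase complexes, and the extremes of the contrasts with other fRIPs and between isoforms. Alternatives were another pseudocount, filter, centring, input set, fit on the groups compared, a replicate block and leaving out each library. HBA1, KCNMB3 and the genes that hold pseudogenes were named after their values were seen.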

Additional observations from a re-analysis of the deposited data

How the results depend on the processing

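Of 125 named genes that were called, 92 kept the call under all alternatives and 0 turned direction. Against input sets 2 and 3, 2676 and 2723 genes were enriched and 1717 and 1766 depleted, beside 2148 and 1364 with all 9 inputs. Enriched isoforms numbered 6728 with all 9 inputs, 6881 with set 2, 7473 with set 3 and 2796 with a pseudocount of 0.1 FPKM, and depleted isoforms 4012, 4523 and 4759 with all 9 inputs, set 2 and set 3. Genes higher than in LSD1 fRIP numbered 6254 with a pseudocount of 0.1 FPKM. Centring gave 2281 higher and 6265 lower genes against CHD4 and 1312 and 5137 against LSD1.

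With all 9 inputs, set 2 and set 3, the correlation with length became 0.374, 0.370 and 0.381, length after exon number 0.290, 0.283 and 0.299, coding length 0.538, 0.528 and 0.544, the 3′ untranslated region 0.164, 0.167 and 0.170, coding length after it 0.537, 0.526 and 0.542, and it after coding length 0.083, 0.090 and 0.094. For mRNAs with at least 5 FPKM in input these were 0.397, 0.287, 0.564, 0.165, 0.562 and 0.074, with exon number at 0.331 and exon number after length at 0.173. A pseudocount of 0.1 FPKM gave 0.342 for length, 0.496 for coding length and 0.494 for it after the 3′ untranslated region. The lncRNA minus mRNA difference from 5, 10 and 20 FPKM was -0.014, 0.042 and 0.066 with all 9 inputs. The retained-intron difference was 0.846 points against input set 1 (p = 0.2, exact permutation), and the correlation with AATAAA density was -0.073 for the longest transcript. The cause of these shifts was not tested.

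Leaving out each HDAC1 or set 1 library in turn gave 1228 to 1355 enriched and 764 to 882 depleted genes, 3516 to 4038 enriched and 1655 to 2041 depleted isoforms, and 20 to 25 genes higher than in every other fRIP, or 19 to 25 with CHD4 and LSD1 libraries also left out in turn. With each library of HDAC1 or the partner left out, counts against CHD4 were 5296 to 5539 and 2822 to 3006, and against LSD1 3954 to 4172 and 1021 to 1182. Correlations were 0.346 to 0.354 with length, 0.494 to 0.517 with coding length, 0.133 to 0.144 with the 3′ untranslated region, 0.492 to 0.515 and 0.0448 to 0.0618 for each of these after the other, 0.185 to 0.207 with AGAGAA and -0.138 to -0.106 with AATAAA. The retained-intron difference against 9 inputs was 2.96 to 3.81 points. Without HDAC1 replicate 1, 18 named genes lost their call.

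With a replicate block 1290 genes were enriched and 841 depleted, and 1 named gene lost its call. Deviations of same-numbered HDAC1 and input libraries correlated at 0.102, 0.105 and 0.076, not all above 0.1, so the numbers were not taken to pair the libraries. Each HDAC1 library correlated best with the input of its own number, a hint from the data and not from the design.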

Other observations

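Of 227 solute carriers 3 were enriched and 5 depleted, below the 5.08% and 3.33% of all genes tested (1 to 3 enriched when 1 library was left out), and in the group of 1200 to 2400 coding bases 23 of 83 lay above the median of the other mRNAs. Of 52 DEAD and DEAH box helicases, which unwind RNA, 3 were enriched and 0 depleted by limma (24 higher and 1 lower at an unadjusted p under 0.05), and the enriched share was near that of all genes (2 to 4 enriched when 1 library was left out). Of 13 RNAs encoded by mitochondrial DNA none was called by limma (5 higher and 0 lower at an unadjusted p under 0.05). With 1 library left out, 0 to 1 of them were enriched. Of 64 replication-dependent histone genes, whose mRNAs lack a poly(A) tail, 1 was enriched and 0 depleted against input set 1. At an unadjusted p under 0.05, 4 were higher and 7 lower, and 0 to 2 were depleted when 1 library was left out. Against all 9 inputs, in contrast, 27 were depleted, where 5.36% of all genes were. The length-matched counts were chosen after values had been seen.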
